A study of Mus musculus with 12 samples.

Results

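The nuclear-encoded subunits of oxidative phosphorylation are described here across 12 messenger RNA libraries of 4T1 cells, which come from a triple-negative mammary carcinoma of the mouse. The members were the protein-coding genes whose symbols begin with Nduf followed by a, b, c, s or v and a digit, with Uqcr, with Cox4 to Cox8 or with Atp5, together with Sdha, Sdhb, Sdhc and Sdhd. This rule used names alone and took 89 of the 78317 genes in the table, of which 39 belong by name to complex I, 4 to complex II, 8 to complex III, 19 to complex IV and 19 to complex V. Control cells and PBRM1 KO cells, whose library names carry sgCt and sgPB, were each either left without treatment or given 5 ng/ml TGFβ1 for 4 days. The titles of the untreated libraries give a time of 0 h. Whether untreated cells were also kept in culture for 4 days is not stated in the labels. The part of time in culture in the differences given for TGFβ1 was therefore not tested. Each of the 4 groups had 3 libraries, called biological replicates in the labels, so p-values measure the spread between these replicates. All groups share the 4T1 background, and the labels used here do not say whether the KO cells were 1 clone or a pool, nor where the gene was edited.

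Oxidative phosphorylation couples the oxidation of NADH and succinate in the inner mitochondrial membrane to the synthesis of ATP. Complexes I (NADH dehydrogenase), III (the cytochrome bc1 complex) and IV (cytochrome c oxidase) pump protons as electrons pass to oxygen, complex II (succinate dehydrogenase) feeds electrons in without pumping, and complex V (ATP synthase) uses the proton gradient. Most subunits are encoded in the nucleus, while the mitochondrial genome supplies a few of complexes I, III, IV and V. TGFβ1 is a secreted factor that drives epithelial cells toward a mesenchymal state, and PBRM1 is a bromodomain subunit of the PBAF chromatin remodelling complex.

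Library totals ran from 9265693 to 11250850 counts, with 22908 to 24402 genes detected per library. The targeted gene Pbrm1 was read at 328, 261 and 258 CPM (counts scaled to the library total) in the untreated control libraries and 289.5, 292 and 276 CPM in the TGFβ1-treated ones. In the KO libraries it was read at 245, 207 and 222 CPM without TGFβ1 and 274, 233 and 222 CPM with it, a difference from control of log2 −0.33 ± 0.10 (SE; edgeR adjusted p = 0.349) and −0.25 ± 0.10 (adjusted p = 0.513). Its transcript was thus present in every library, and since where the gene was edited is not given and reads come from the 3′ end, these values do not check the KO labels. The epithelial keratins Krt8 (572 to 916 CPM) and Krt18 (711 to 1008 CPM) and the adhesion molecule Epcam (163 to 270.0 CPM) were read in every library, while the progesterone receptor gene Pgr stayed at or below 0.133 CPM, the leukocyte marker Ptprc at or below 0.181 CPM and the endothelial marker Pecam1 at or below 0.543 CPM. Erbb2 was read at 34.6 to 41.6 CPM and Esr1 at 4.42 to 11.5 CPM. Not all markers of other cell types were near 0. The leukocyte marker Cd68 was read at 3.62 to 7.83 CPM. Of the fibroblast markers, Col1a1 was at 8.23 to 53.6 CPM, Col1a2 at 7.77 to 29.2 CPM, Pdgfra at 3.31 to 6.74 CPM and Dcn at 1.20 to 3.80 CPM. Which cells these reads came from was not tested. The TGFβ1 replicate 3 libraries of both genotypes stood apart: leaving both out raised the share of all tested genes called for TGFβ1 from 8.81% to 23.9% in control cells and from 11.4% to 27.9% in KO cells. Results for the members are therefore also given without them.

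Of the 89 members, 85 had at least 1 count and 80 passed the filter on low counts, alongside 14012 genes tested in all. The 80 were 37 genes of complex I, all 4 of complex II, all 8 of complex III, 12 of complex IV and all 19 of complex V. No count was seen for Ndufb11b, a copy of Ndufb11, nor for Cox8c, Cox7b2 and Cox6b2, isoforms known from testis. The other 5 that missed the filter were isoforms known from muscle, lung or hypoxic cells, namely Cox7a1 with 30 counts over the 12 libraries, Cox6a2 with 23, Cox4i2 with 4, Ndufa4l2 with 4 and Cox8b with 1. Together the members took from 1.38% to 1.70% of all counts of a library. Libraries of this kind count 1 end per transcript, so CPM was taken as a level without division by gene length when genes were compared.

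Among complex I genes the highest mean level over the 12 libraries belonged to Ndufa4, at 941 CPM, whose protein is now placed in complex IV although its name puts it in complex I. The next, Ndufb9, an accessory subunit of the membrane arm, was at 286 CPM, and the lowest tested, the accessory subunit Ndufa1, was at 23.6 CPM. Succinate dehydrogenase was uneven, with the membrane anchor Sdhc at 217 CPM, the iron-sulfur subunit Sdhb at 90.6 CPM, the flavoprotein Sdha at 80.9 CPM and the second anchor Sdhd at 14.2 CPM. Complex III ran from 91.5 CPM for Uqcrfs1, the Rieske iron-sulfur protein, to 201 CPM for the small subunit Uqcrq and 214 CPM for Uqcrh, the hinge protein. In complex IV the subunits Cox5a and Cox4i1, which bind the catalytic core, led with 722 CPM and 536 CPM, and the lowest tested was Cox5b-ps at 64.3 CPM. In complex V the catalytic beta subunit Atp5f1b had 685 CPM and the c-ring gene Atp5mc3 had 498 CPM, while the lowest was the second row of Atp5po. The plot of member levels by complex shows that complexes overlapped in level, with complex III spanning the narrowest range.

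**Figure D1:**
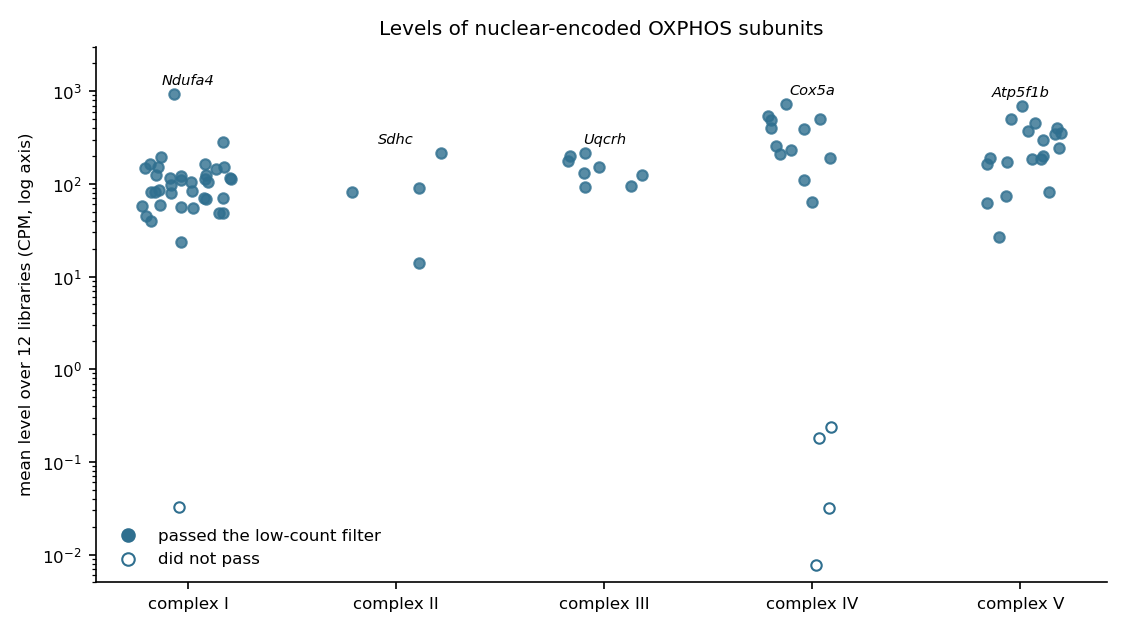
Mean level over the 12 libraries, in CPM on a log axis, of the 85 members with counts, grouped by complex. Filled points are the 80 that passed the filter, with Ndufa4 highest at 941 CPM and Sdhd lowest at 14.2 CPM, and open points the 5 that did not.

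Where a subunit is encoded by more than 1 gene, 1 isoform made up nearly all of the counts in most families. Cox4i1, Cox6a1, Cox6b1, Cox7b, Cox8a and Ndufa4 each held at least 99.88% of their family's counts in every library, against Cox4i2, Cox6a2, Cox6b2, Cox7b2, Cox8b with Cox8c, and Ndufa4l2. The 3 genes that encode the same mature c subunit of ATP synthase were all read, with Atp5mc3 giving 77.6% of the pooled counts, Atp5mc2 12.6% and Atp5mc1 9.73%. In the Cox7a family, Cox7a2 gave most counts and Cox7a2l, known as a factor that joins complexes III and IV into supercomplexes, most of the rest. The muscle isoform Cox7a1 stayed at or below 0.142% of the family.

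The counts were fractional in many places, as arises when reads are shared out between genes. Of the members' 12 values each, 36.5% were not whole numbers, 39.5% of those above 0, against 27.5% of the values above 0 over all genes. In 62 members at least 1 library held a fractional count, in 12 members at least 10 libraries did (the 8 named next with Ndufb9, Ndufs3, Uqcrb and Cox8a), and in 8 all 12 did (Ndufb4, Cox5b, Cox5b-ps, Atp5pd, Atp5mk, Atp5mc2, Atp5mg and Atp5mc1). Of the 390 fractional values, 244 (62.6%) had a decimal part of 0.5, the value of a read split between 2 genes, and in 33 members no other decimal part occurred. In the GENCODE M21 annotation of GRCm38, used here for neighbours alone, 10 members were overlapped by another counted gene on the same strand, and 59.2% of their values were fractional against 35.4% for the other 75 members with counts. Fractions thus also occurred in members without a same-strand overlap in that annotation. On the opposite strand 30 members were overlapped, and overlaps in the annotation used for the counting were not checked.

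Some fractions ran in pairs. Cox5b, a complex IV subunit, and Cox5b-ps, a near copy of it listed as protein-coding, were both fractional in all 12 libraries, with equal decimals in 6, and Cox5b-ps held 20.9% to 22.4% of the pair's counts. Atp5po, the subunit of the stator stalk that confers oligomycin sensitivity, stood on 2 rows with different identifiers, at 171 CPM and 26.4 CPM, both fractional in 6 libraries with equal decimals in 5. The second row held 12.3% to 14.8% of the counts of both. How much of Cox5b-ps and of the second Atp5po row is their own transcript cannot be told from these counts, so their values are uncertain. Of the members called below, only Atp5mc1 was fractional in all libraries. It and Atp5mc2 were both fractional in 12 libraries with no equal decimals, and it shared equal decimals with Atp5mc3 in 2 of the 4 libraries where both were fractional.

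Summed over all 89 members, untreated control libraries held 15150.0, 16774 and 16973 CPM and TGFβ1-treated control libraries 14893, 14566 and 14903 CPM. Untreated KO libraries held 14771, 16499 and 15788 CPM and treated KO libraries 13799.6, 14764 and 15134 CPM. The treated libraries lay below all untreated ones in control cells, while in KO cells treated replicate 3 lay above untreated replicate 1. Group means were 16299 ± 999.8, 14787 ± 192, 15686 ± 869 and 14566 ± 689 CPM (SD, n = 3 each). In both genotypes untreated replicate 1 was the lowest of its group, by more than the treated control libraries differed among themselves.

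The complex V sum was the 1 sum that did not overlap between treated and untreated libraries in either genotype. It was 5044, 5564 and 5579 CPM in untreated and 4775, 4588 and 4759 CPM in treated control libraries. In KO cells it was 4911, 5464 and 5185 CPM without and 4397, 4620.4 and 4887 CPM with TGFβ1. The complex I sum of 4542, 4988 and 5068 CPM in untreated control libraries overlapped the 4572, 4521 and 4570.2 CPM of the treated ones, as its KO groups did. The complex II sums were small, 406 to 419 CPM in untreated and 380.2 to 386 CPM in treated control libraries, and those groups did not overlap, whereas 396 to 439 CPM and 384 to 406 CPM did in KO cells. Complex III (1157 to 1308 against 1078 to 1149 CPM) was separated in control cells and overlapped in KO cells, and complex IV overlapped in both. A sum of CPM follows its most abundant members and is a share of each library, so in these bulk libraries fewer cells of a kind and less RNA per cell cannot be told apart.

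**Figure D2:**
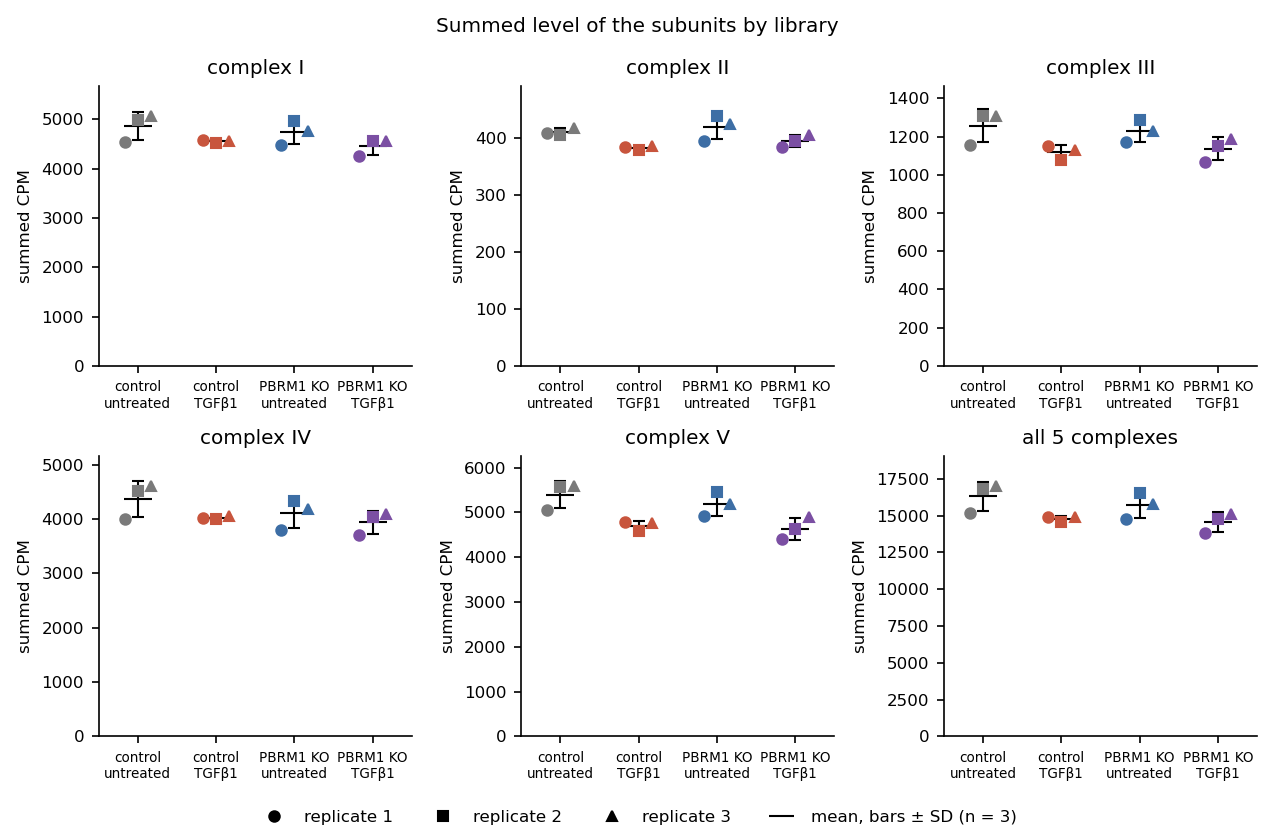
Summed CPM of the members of each complex in each of the 12 libraries, with points for libraries and the mean ± SD of each group of 3 as bars. The complex V points of treated libraries lie below the untreated ones in both genotypes, and untreated replicate 1 is the lowest untreated library for the sum over all members.

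In control cells TGFβ1 went with a small and broad decrease. Of the 80 tested members 7 passed an edgeR quasi-likelihood test at an adjusted p under 0.05, which is 8.75% against a background of 8.81% of all tested genes. All 7 fell, against 2.91% of all tested genes called lower, and none rose, against 5.89% called higher. The share of members called was thus near the background, while their direction was not mixed: 74 of 80 fold changes lay below 0 (92.5%, against 49.7% of all genes). The median was log2 −0.15 against 0.00 over all genes. CPM of the 3 treated libraries lay below all 3 untreated ones in 30 members (37.5%, against 12.2% of all tested genes) and above in 1 member, Cox7a2l (1.25%, against 14.0%). Changes were small in size, since the 95% interval lay within a 1.5-fold change either way in 77 of 80 members and 54.5% of all genes, with Ndufs7, Atp5me and Ndufs8 the exceptions.

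Among the genes that fell, Ndufs7 encodes a core iron-sulfur subunit of complex I near the quinone site. It was read at 117, 118 and 135 CPM without TGFβ1 and 96.6, 87.9 and 91.1 CPM with it in control cells, groups that did not overlap (log2 −0.43 ± 0.09, adjusted p = 0.0102). Ndufs8, a core subunit that carries 2 of the iron-sulfur clusters of the same arm, went from 73.2, 78.7 and 82.2 CPM to 65.3, 55.1 and 59.1 CPM, also without overlap (log2 −0.39 ± 0.11, adjusted p = 0.0426). The third complex I gene called, Ndufa10, encodes an accessory subunit of the membrane arm. Its CPM was 113, 117 and 117 untreated and 95.9, 89.4 and 95.01 treated, with treated libraries close together and all lower (log2 −0.31 ± 0.07, adjusted p = 0.0212). In complex III the small subunit Uqcr10 was at 133, 149 and 159 CPM and then 122, 106 and 116 CPM, all treated libraries below all untreated ones (log2 −0.36 ± 0.10, adjusted p = 0.0342).

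The other genes called encode ATP synthase subunits. Atp5f1a, the alpha subunit of the catalytic head, was at 503, 477 and 442 CPM without and 402, 379 and 401 CPM with TGFβ1, with no overlap (log2 −0.27 ± 0.07, adjusted p = 0.0324). Its annotated span is overlapped on the opposite strand by Haus1, a subunit of the augmin complex, at log2 −0.39 ± 0.12 (adjusted p = 0.0669), and the part of Haus1 reads in its values was not tested. Atp5mc1, which encodes the c subunit of the rotor ring, fell from 67.5, 75.3 and 67.6 to 53.5, 52.2 and 58.8 CPM, again without overlap (log2 −0.36 ± 0.09, adjusted p = 0.0333). Atp5me, the small membrane subunit e that takes part in dimers of the enzyme, was at 194, 221 and 227 CPM and then 185, 143 and 166 CPM, where treated replicate 1 came nearest the untreated libraries (log2 −0.38 ± 0.10, adjusted p = 0.0339). No gene of complexes II and IV was called. Without both TGFβ1 replicate 3 libraries 14 members were called, 12 lower and 2 higher, among them all 7 (17.5%, against 23.9% of all tested genes). That fit called 10% of all tested genes lower and 13.9% higher. Leaving out single libraries took the count to 0 (without untreated control replicate 3, or without treated control replicate 2), 1 (without untreated control replicate 2), 2 (without treated control replicate 1) or 11 (without treated KO replicate 3), and each of the 7 calls was lost in at least 2 of the 6 fits that left out one of its own libraries.

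The promoters of 4 of the 5 called genes that held a motif are shown, with motifs for which respiratory genes are known. NRF1 and GABPA, an ETS factor, are regulators of nuclear respiratory genes, and YY1 is a general regulator with sites in many of them. Windows from 250 bases before to 50 after the annotated start were taken from RefSeq on GRCm38.p6 and searched on both strands for GCGCATGCG (NRF1 core), GCGCANGCG (a looser NRF1 form that includes the core), CCGGAAG (ETS and GABPA) and AAGATGGCG (YY1). Capitals mark the matches, and each sequence reads 5′ to 3′ on the gene's strand. Ndufs7 lies at chr10:80249199-80249498 on the plus strand with a YY1 match just after the start, and Atp5me at chr5:108434350-108434649 on the minus strand with an NRF1 core read on both strands and an ETS match. Ndufs8 lies at chr19:3912725-3913024 on the minus strand with an ETS match after the start, and Ndufb10, called in KO cells, at chr17:24724374-24724673 on the minus strand with a loose NRF1 match at the start.
Ndufs7: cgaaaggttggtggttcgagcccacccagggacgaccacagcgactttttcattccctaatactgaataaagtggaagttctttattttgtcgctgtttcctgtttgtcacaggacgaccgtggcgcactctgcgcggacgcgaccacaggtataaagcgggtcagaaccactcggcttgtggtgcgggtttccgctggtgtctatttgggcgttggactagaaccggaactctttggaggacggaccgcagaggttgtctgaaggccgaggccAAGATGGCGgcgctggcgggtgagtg
Atp5me: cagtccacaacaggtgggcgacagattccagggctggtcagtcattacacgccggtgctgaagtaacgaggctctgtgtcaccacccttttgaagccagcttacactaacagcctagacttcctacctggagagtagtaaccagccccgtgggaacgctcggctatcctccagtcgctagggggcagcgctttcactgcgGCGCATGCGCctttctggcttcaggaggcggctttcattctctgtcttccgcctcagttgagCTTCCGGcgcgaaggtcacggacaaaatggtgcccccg
Ndufs8: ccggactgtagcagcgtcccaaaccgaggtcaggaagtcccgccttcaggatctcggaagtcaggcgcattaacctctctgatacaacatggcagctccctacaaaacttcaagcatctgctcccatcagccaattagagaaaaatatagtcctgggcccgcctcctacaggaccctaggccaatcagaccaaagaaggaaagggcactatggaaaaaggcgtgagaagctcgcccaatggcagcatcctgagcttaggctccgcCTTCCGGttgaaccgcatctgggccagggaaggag
Ndufb10: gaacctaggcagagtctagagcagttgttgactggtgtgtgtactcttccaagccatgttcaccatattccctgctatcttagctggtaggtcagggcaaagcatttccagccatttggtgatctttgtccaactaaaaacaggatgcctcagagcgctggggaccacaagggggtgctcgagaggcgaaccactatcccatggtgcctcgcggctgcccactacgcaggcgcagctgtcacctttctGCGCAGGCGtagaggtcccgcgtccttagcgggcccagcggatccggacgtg
Of the 89 members 71 matched an entry, and 8 of the 10 genes called in either genotype did, of which Ndufa10, Uqcr10 and Atp5mc1 held none of the motifs. The share with a match was higher in members than in the 27025 genes of the same table: 11.3% against 1.95% for the NRF1 core, 31.0% against 7.03% for the loose form, 22.5% against 9.93% for the ETS form and 9.86% against 1.64% for YY1. At least 1 match stood in 52.1% of members and 16.5% of all genes. The 27025 genes were not limited to those expressed in these cells, and the share among tested genes was not counted. Whether these shares are particular to the members was therefore not tested. The difference between members with and without a match was not tested. In control cells the median for TGFβ1 was log2 −0.17 with and −0.13 without the loose NRF1 form, and −0.17 with and −0.15 without the ETS form. In KO cells these medians were −0.16 and −0.13, and −0.22 and −0.13. For the NRF1 core they were −0.20 and −0.15 in control and −0.16 and −0.13 in KO cells, and for YY1 −0.18 and −0.14, then −0.16 and −0.13. A match is a description of letters in the window, and binding was not measured.

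In KO cells 3 of 80 members were called for TGFβ1 (3.75%, against a background of 11.4% of all tested genes). Ndufa5 and Ndufb10 fell, 2 genes against 3.72% of all genes called lower, and 1 was called higher, against 7.65%. The lean was again downward, with 69 of 80 fold changes below 0 and a median of log2 −0.13. Treated libraries lay below all untreated ones in 31 members (38.75%, against 13.7% of all tested genes) and above in 2, Cox7a2l among them (against 16.1%). The 95% interval lay within a 1.5-fold change in 78 members, but not in Sdhd, and in 53.3% of all tested genes. Replicate numbers paired these libraries by their deviations, and with the number as a block 15 members were called, 13 lower and 2 higher (18.75%, against 19.8% of all tested genes). The 12 added were Cox7a2l, which was higher, and Ndufs7, Ndufa4, Sdhd, Uqcr11, Cox8a, Atp5f1c, Atp5f1e, Atp5mc1, Atp5mc2, Atp5mc3 and Atp5me, which were lower. Without both TGFβ1 replicate 3 libraries 16 were called, 14 lower and 2 higher (20%, against 27.9% of all tested genes). That fit called 11.97% of all tested genes lower and 16.0% higher.

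Ndufa5, an accessory subunit of the peripheral arm of complex I, was at 91.7, 90.7 and 89.5 CPM in untreated and 66.6, 67.1 and 80.6 CPM in treated KO cells, without overlap and with treated replicate 3 the nearest to the untreated libraries (log2 −0.35 ± 0.11, adjusted p = 0.0488). In control cells it was at 86.6, 92.7 and 100.3 and then 85.9, 71.2 and 82.1 CPM (log2 −0.23 ± 0.11, adjusted p = 0.206). Ndufb10, an accessory subunit of the membrane arm, fell from 78.0, 76.3 and 73.6 to 61.9, 65.2 and 61.8 CPM in KO cells, and the groups stood well apart (log2 −0.28 ± 0.08, adjusted p = 0.0472). In control cells its groups overlapped, at 68.3, 75.8 and 73.1 and 74.6, 64.4 and 64.9 CPM (log2 −0.09 ± 0.08, adjusted p = 0.529). Both calls held in 1 of the 6 fits that left out one of their own libraries. The count in KO cells was 0 without treated KO replicate 2, 1 without untreated control replicate 2, treated KO replicate 1 or any 1 of the untreated KO libraries, 5 without untreated control replicate 1, 7 and 6 without treated control replicates 2 and 3, and 16 without treated KO replicate 3.

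**Figure D3:**
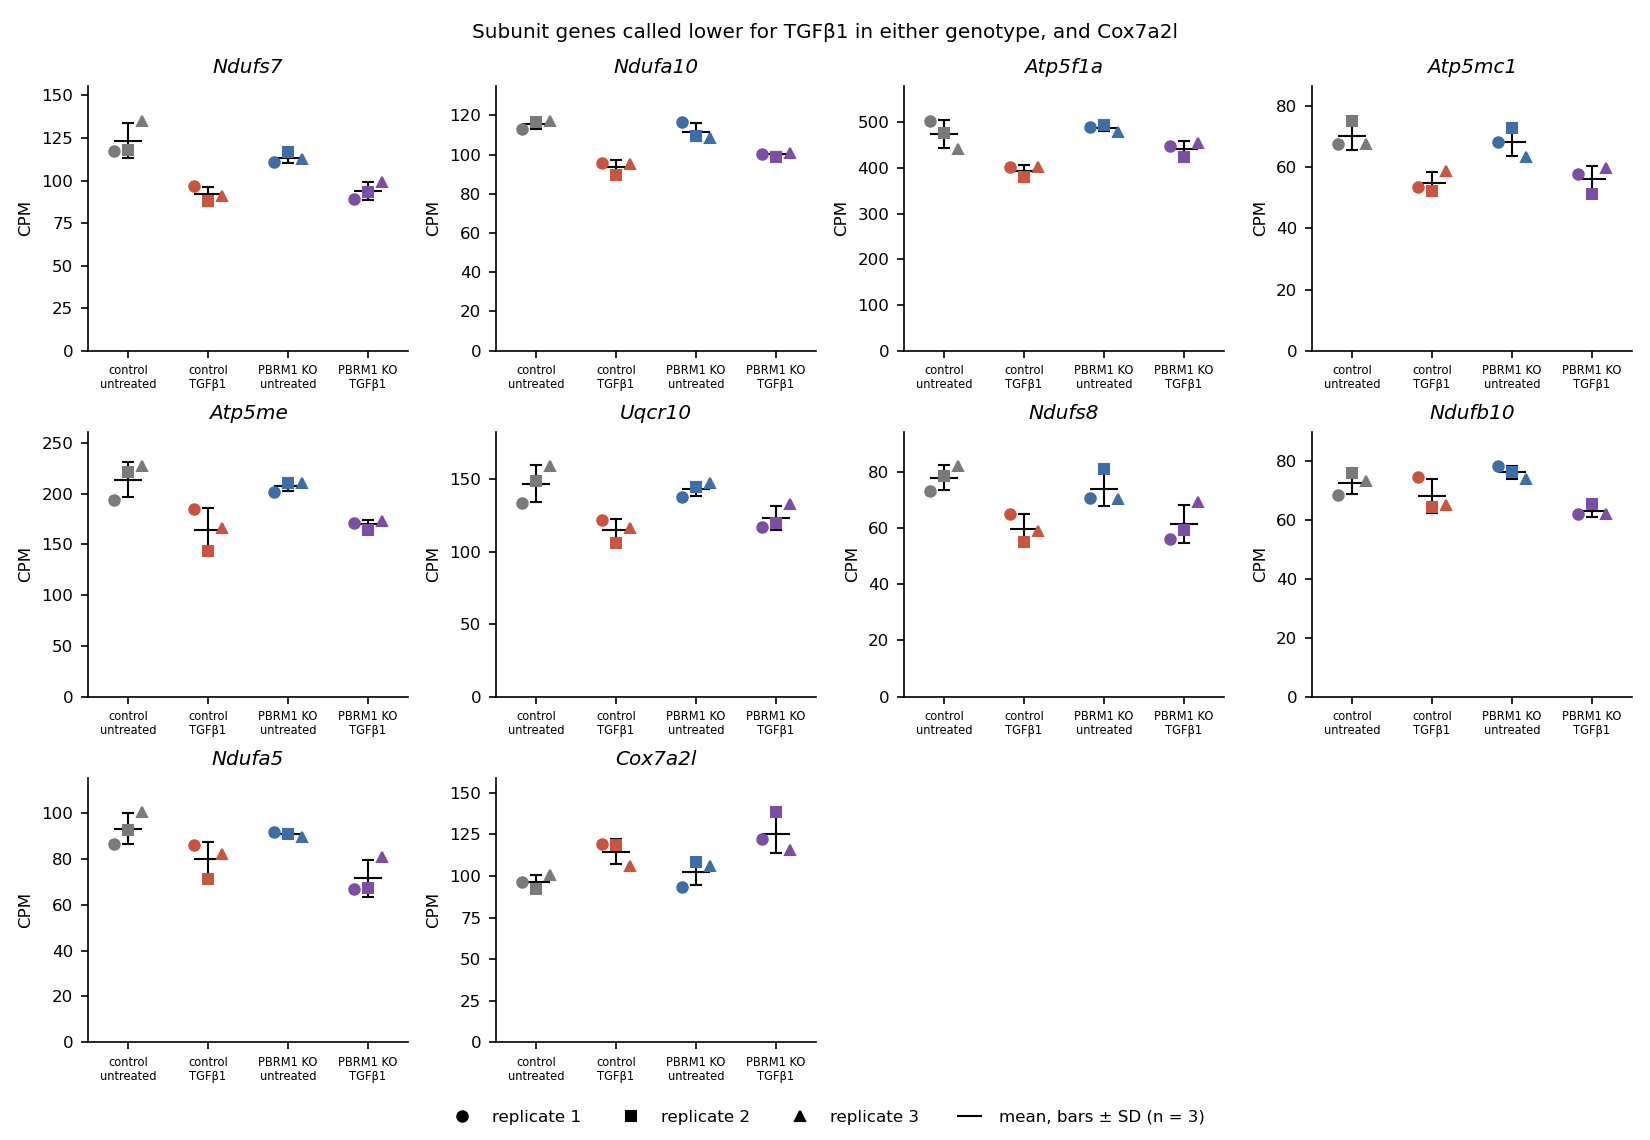
CPM of the 9 members called lower for TGFβ1 in either genotype and of Cox7a2l, with points for the 3 libraries of each of the 4 groups and bars for the mean ± SD. The 9 are lower after TGFβ1 in the genotype in which they were called, and Cox7a2l is higher in both.

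Cox7a2l leaned upward. It was read at 96.5, 92.3 and 101 CPM without and 119, 119 and 106 CPM with TGFβ1 in control cells, and 93.2, 108 and 106 and then 122, 138 and 116 CPM in KO cells. The groups did not overlap in either genotype, and neither change was called, at log2 0.25 ± 0.09, adjusted p = 0.114 and 0.28 ± 0.09, adjusted p = 0.0624. The replicate block led to a call in KO cells (adjusted p = 0.0327), and the fit that left out both TGFβ1 replicate 3 libraries to one in each genotype. Its share of the Cox7a family's counts was 25.8 ± 2.84% and then 30.6 ± 1.28% in control cells, and 28.3 ± 0.119% and then 34.6 ± 4.22% in KO cells (SD, n = 3 each). The share of Cox7a2, the ubiquitous form, was 74.1 ± 2.89% and 69.4 ± 1.28%, then 71.6 ± 0.107% and 65.3 ± 4.26%.

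**Figure D4:**
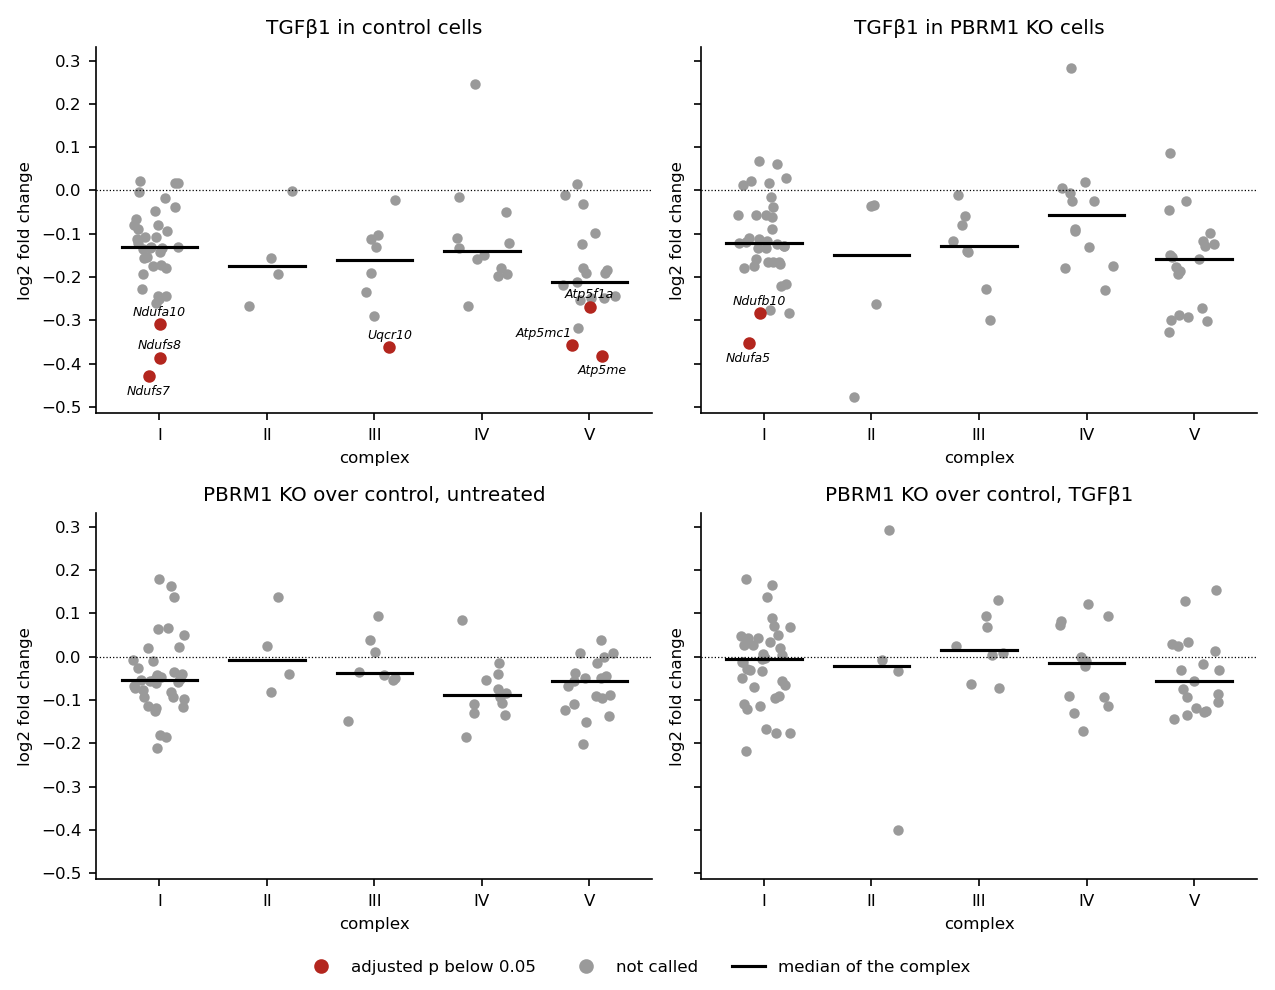
Log2 fold change of 79 of the 80 tested members by complex, for TGFβ1 in control and in PBRM1 KO cells (upper panels) and for KO over control without and with TGFβ1 (lower panels), with the median of each complex over all its tested members as a line and called members in red. Complex medians for TGFβ1 lie between −0.21 and −0.06, and no member is called in the lower panels.

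The 2 TGFβ1 comparisons share no library. In 66 of 80 members (82.5%, against 39.0% of all tested genes) the fold change lay below 0 in both, in 3 above 0 in both, and in 11 the signs were opposite. In 20 members (25%, against 6.32% of all tested genes) treated libraries lay below all untreated ones in both genotypes, and in 1, Cox7a2l, above (1.25%, against 8.46%). Of these 20, 10 were among the 19 genes of complex V, 8 among the 37 of complex I, 1 each among the 8 of complex III and the 12 of complex IV, and none among the 4 of complex II. The edgeR fit without a block called no member in both genotypes, while 6 were called in both with the replicate block and 11 without both TGFβ1 replicate 3 libraries. Not all of the 11 fell, since Cox7a2l among them was higher. The block called 17.1% and 19.8% of all tested genes in control and KO cells, and the other fit 23.9% and 27.9%. The share of all genes called in both genotypes was not counted. Replicate numbers did not pair the libraries in control cells. No member passed the test of the difference, so the lists of called members are not shown to differ.

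**Figure D5:**
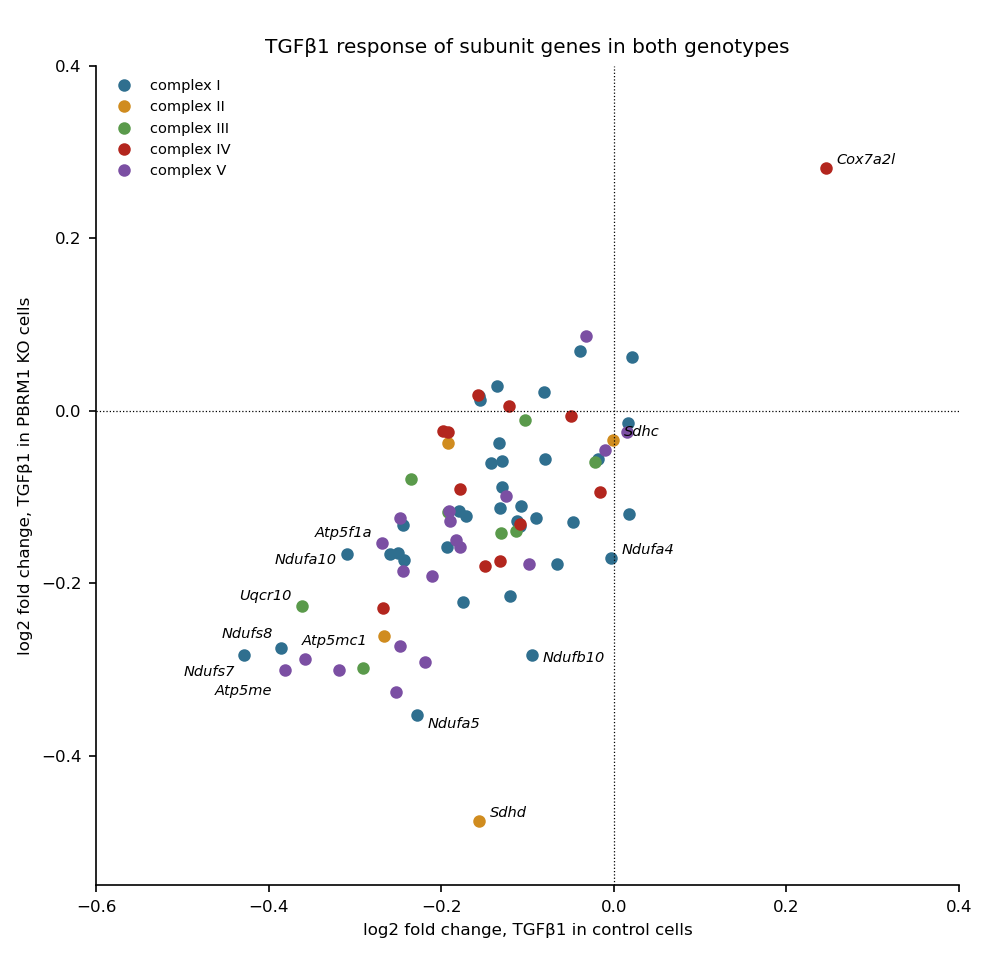
Log2 fold change for TGFβ1 of 79 of the 80 tested members in control cells (horizontal axis) and in PBRM1 KO cells (vertical axis), coloured by complex. Of the 79 points, 66 lie below 0 on both axes.

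By complex, the median fold change for TGFβ1 in control and KO cells was log2 −0.13 and −0.12 for complex I, −0.17 and −0.15 for complex II, −0.16 and −0.13 for complex III, −0.14 and −0.06 for complex IV, and −0.21 and −0.16 for complex V. Within ATP synthase the values were not even. All 5 genes of the F1 head and central stalk, Atp5f1a to Atp5f1e, had treated libraries below all untreated ones in both genotypes, with medians of −0.25 and −0.15. So had all 3 c-ring genes, with medians of −0.25 and −0.29. In the 5 rows of the peripheral stalk this held in 1 and 2, with medians of −0.10 and −0.18, and in the 5 membrane subunits outside the c ring also in 1 and 2, with medians of −0.18 and −0.15. Of all tested genes, 12.2% in control cells, 13.7% in KO cells and 6.32% in both had treated libraries below all untreated ones. These role groups were drawn up after the values were seen, and their counts are a description.

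The largest change among the F1 genes in control cells was that of Atp5f1e, the epsilon subunit of the central stalk, at 395, 483 and 493 CPM without and 352, 381 and 370.4 CPM with TGFβ1 (log2 −0.32 ± 0.11, adjusted p = 0.0798). In KO cells it was at 386, 458 and 419.5 and then 322, 339 and 372 CPM (log2 −0.30 ± 0.11, adjusted p = 0.0838). Neither passed the test, and the groups did not overlap in either genotype. Atp5mc3, the most abundant c-subunit gene, was at 541, 564 and 558 and then 480.4, 426 and 496 CPM in control cells (log2 −0.25 ± 0.09, adjusted p = 0.0936). In KO cells it went from 519, 548 and 522 to 439.9, 407 and 479 CPM (log2 −0.27 ± 0.09, adjusted p = 0.0582), again without overlap and without a call. The smallest p of complex V in KO cells belonged to the c-subunit gene Atp5mc2, at 80.3, 92.4 and 90.6 and then 70.4, 72.2 and 74.2 CPM, also apart (log2 −0.29 ± 0.09, adjusted p = 0.0544). With the replicate block all 3 were called in KO cells (adjusted p = 0.0117 for Atp5f1e, 0.0208 for Atp5mc3 and 0.0298 for Atp5mc2). Atp5if1, the inhibitor of ATP hydrolysis by the enzyme, had fold changes of log2 −0.03 and 0.09, and its groups overlapped in both genotypes.

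In complex I the 7 core subunits had medians of log2 −0.13 and −0.12, and the 30 accessory ones −0.13 and −0.12. In control cells treated libraries lay below all untreated ones in 5 of the 7 and 9 of the 30, and in KO cells in 3 and 11. The same held in 12.2% of all tested genes in control and 13.7% in KO cells. Ndufa4, the most abundant member, had a change of log2 −0.00 ± 0.11, adjusted p = 0.989, in control cells and of log2 −0.17 ± 0.11, adjusted p = 0.337, in KO cells, where the replicate block called it lower (adjusted p = 0.0456). In complex III the core proteins Uqcrc1 and Uqcrc2 with the Rieske protein had medians of −0.11 and −0.08, and the 5 small subunits −0.19 and −0.14. The smallest p of complex III in KO cells belonged to Uqcr11, a small subunit, at 96.6, 108 and 106 and then 84.1, 83.3 and 87.1 CPM, without overlap (log2 −0.30 ± 0.11, adjusted p = 0.105).

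In complex IV, Cox8a, a small subunit of the membrane part, was at 501, 545 and 562 and then 456, 429 and 454 CPM in control cells, groups that did not overlap (log2 −0.27 ± 0.09, adjusted p = 0.0766). Its values in KO cells were 494, 552 and 521 and then 412, 451 and 484 CPM, likewise apart (log2 −0.23 ± 0.09, adjusted p = 0.112). It was the 1 gene of this complex that lay lower without overlap in both genotypes. Succinate dehydrogenase showed different values for its 4 genes. Sdhc was at 223, 208 and 217 and then 214, 216 and 217 CPM in control cells (log2 −0.00 ± 0.07, adjusted p = 1.00). Sdhb was at 91.8, 99.7 and 108 and then 86.9, 82.8 and 80.1 CPM in control cells, with no overlap and no call (log2 −0.27 ± 0.11, adjusted p = 0.171). Sdha was at 79.9, 82.1 and 76.9 and then 67.8, 69.7 and 71.9 CPM in control cells, also apart (log2 −0.19 ± 0.07, adjusted p = 0.119), while its KO groups overlapped. Sdhd, the least abundant, was at 14.4, 16.9 and 14.2 and then 10.0, 11.5 and 11.5 CPM in KO cells, where treated libraries lay below all untreated ones (log2 −0.48 ± 0.15, adjusted p = 0.0644). With the replicate block Sdhd was called (adjusted p = 0.0377).

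Differences between the genotypes did not pass the test in any member. Without TGFβ1 no member was called by edgeR between KO and control cells, against a background of 0.278% of all tested genes. None had an unadjusted p under 0.05, against 1065 of all 14012 tested genes. The median was log2 −0.05, the range −0.21 to 0.18, and all 80 intervals lay within a 1.5-fold change, against 64.9% of all tested genes. With TGFβ1 none was called, against 0.271% of all tested genes. An unadjusted p under 0.05 was found in 5 (Sdha, Sdhd, Ndufv2 and Atp5f1a among them), against 1194 of all 14012. The median was −0.01, and 79 intervals lay within 1.5-fold, against 64.0% of all tested genes, Sdhd being the exception. DESeq2, limma-voom and the replicate block also called no member in either comparison. The smallest p of each complex without TGFβ1 belonged to Ndufs4 (log2 −0.18 ± 0.09, adjusted p = 0.694), a subunit of the peripheral arm of complex I, Sdha, Uqcrc1 (log2 −0.15 ± 0.09, adjusted p = 0.849), Cox4i1 (log2 −0.19 ± 0.09, adjusted p = 0.705) and Atp5mk (log2 −0.20 ± 0.13, adjusted p = 0.869). With TGFβ1, outside complex I, it belonged to Sdha, Uqcrc2 (log2 0.13 ± 0.08, adjusted p = 0.723), Cox6b1 (log2 −0.17 ± 0.09, adjusted p = 0.626) and Atp5f1a (log2 0.15 ± 0.07, adjusted p = 0.579). Of these, groups did not overlap for Ndufs4 and Sdha without TGFβ1 and for Sdha, Cox6b1 and Atp5f1a with it. Such separation was not more common in members than elsewhere by much, if at all. Without TGFβ1, KO libraries lay below all control ones in 5.0% of members and above in 6.25%, against 8.71% and 6.95% of all tested genes. With TGFβ1 these shares were 5.0% and 7.5%, against 5.61% and 6.28%.

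Sdha had the smallest p between genotypes. The flavoprotein of complex II was at 67.8, 69.7 and 71.9 CPM in treated control and 90.9, 83.2 and 84.7 CPM in treated KO libraries, which did not overlap (log2 0.29 ± 0.07, adjusted p = 0.145). Its 95% interval ran from 0.14 to 0.45. Without TGFβ1 it was at 79.9, 82.1 and 76.9 CPM in control and 84.8, 89.9 and 88.6 CPM in KO libraries, again without overlap (log2 0.14 ± 0.07, adjusted p = 0.74). Sdhd lay on the other side, at 15.3, 11.2 and 16.7 CPM in treated control and 10.0, 11.5 and 11.5 CPM in treated KO libraries, which overlapped (log2 −0.40 ± 0.16, adjusted p = 0.451).

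Whether the TGFβ1 change differed between the genotypes was tested by the interaction. No gene was called by edgeR, a background of 0.0%, with 247 genes and no member at an unadjusted p under 0.05. The members' median difference was log2 0.04, and 78 of 80 intervals lay within a 1.5-fold difference either way, against 48.8% of all tested genes. DESeq2, limma-voom and the replicate block called no member either.

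Other genes of the pathway were read from lists drawn up with earlier results of these data known. The 13 mitochondrially encoded subunits had medians of log2 −0.05 and −0.04 for TGFβ1 in control and KO cells, with none called. Of 17 tested complex I assembly factors, with medians of −0.25 and −0.18, none was called in control cells, and Ndufaf4 fell in KO cells (log2 −0.56 ± 0.17, adjusted p = 0.0455). Of 35 assembly factors of complexes II to V, with medians of −0.12 and −0.07, Cmc2 (−0.46 ± 0.10) and Cox14 (−0.38 ± 0.09), both of complex IV assembly, fell in control cells. In KO cells Cmc2 (−0.54 ± 0.10) and Uqcc2 (−0.47 ± 0.12), a complex III assembly factor, did. Of all tested genes 2.91% were called lower in control and 3.72% in KO cells. The replicate block in KO cells raised the count to 2 for the complex I factors, all lower. For those of complexes II to V it raised the count to 5, with 4 lower and 1 higher. These counts stand against 19.8% of all tested genes called by the block in KO cells. The 6 carriers and subunits outside the name rule had medians of −0.12 and −0.18 with none called, and the 16 genes of the tricarboxylic acid cycle −0.16 and −0.14 with none called. With the replicate block in KO cells 1 of the 6, 2 of the 16 and 2 of the 13 mitochondrially encoded genes were called, all lower. The block called 7.84% of all tested genes lower in KO cells, a smaller share than in each of these short lists, where 1 or 2 genes make up the share. Without both TGFβ1 replicate 3 libraries the medians of the mitochondrially encoded genes were −0.14 and −0.20, with 2 called lower in each genotype. That fit called 10% and 11.97% of all tested genes lower. In KO cells its medians for the complex II to V factors and for the 6 carriers and subunits were −0.14 and −0.30.

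The mitochondrial ribosomal proteins, which build the machinery that translates the mitochondrial messages, leaned the same way. Of 78 tested, 74 lay below 0 in each genotype, with medians of log2 −0.20 and −0.15. In control cells 6 fell, among them Mrpl33 (−0.53 ± 0.12) and Mrpl4 (−0.47 ± 0.10), and in KO cells 2, Mrpl54 (−0.46 ± 0.12) and Mrpl18 (−0.31 ± 0.09). These counts stand against 2.91% and 3.72% of all tested genes called lower. Without both TGFβ1 replicate 3 libraries 28 and 26 of them were called lower, against 10% and 11.97% of all tested genes, with medians of −0.28 and −0.23. With the replicate block 9 were called lower in KO cells, against 7.84% of all tested genes. Of 14 tested regulators of mitochondrial biogenesis none was called in control cells, while in KO cells the coactivator Ppargc1b fell (log2 −1.35 ± 0.24, adjusted p = 0.0035) and the nuclear receptor Esrra rose (0.54 ± 0.11, adjusted p = 0.00675). Between genotypes, and for the interaction, no gene of these 7 lists was called, apart from 1 mitochondrially encoded gene that the replicate block called lower in treated KO than in treated control cells.

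The spread of the members between replicates was below that of all tested genes in each group. The median within-group SD of log2 CPM was 0.0805 to 0.113 over the 4 groups for the 80 members, against 0.136 to 0.182 for all tested genes and 0.101 to 0.141 for the 7501 other genes in the members' range of level. In untreated control cells alone the members' 0.113 was above that of these other genes, at 0.111. The members' median in each library, relative to the mean of untreated control cells, was log2 −0.12, 0.05 and 0.08 in untreated control, −0.12, −0.19 and −0.13 in treated control, −0.11, 0.02 and −0.04 in untreated KO and −0.28, −0.14 and −0.11 in treated KO libraries. In each genotype all treated libraries were below all untreated ones, but the margin over untreated replicate 1 was narrow, with −0.117 against −0.121 in control and −0.110 against −0.113 in KO cells. Without untreated control replicate 1 the median fold change in control cells was log2 −0.24.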

How the data were processed

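Messenger RNA of 4T1 cells was counted at the 3′ end from poly(dT) priming, tagmentation and deduplication by molecular identifiers, stranded and single-end, per the labels' protocols. The submitters' processing notes name build mm39 and the tools edgeR 3.38.4, featureCounts of Subread 2.1.1, STAR 2.7.11, fastp 0.24.0 and SAMtools 1.22.1. Strand and sharing settings of the counting, and the annotation release, are not given in the sources used here. Each count column, as deposited, is an expected count per gene: many values are fractional, as arises where reads are shared between genes. The deposited CPM values equalled count over library total within 4.85e-06, per the file headers and values. The 92 spike-in entries held 0 counts and were left out.

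Counts were rounded to whole numbers, filtered with filterByExpr (14012 genes), scaled by TMM and fitted with edgeR 4.0.16 in R 4.3.3 by quasi-likelihood, with 1 mean per group over all 12 libraries. P-values were adjusted by Benjamini-Hochberg over all tested genes, and a call is an adjusted p under 0.05. The SE was taken as the absolute log2 fold change divided by the root of the F statistic, and intervals are at 95%. Library totals of 9265693 to 11250850 set the precision of low genes. Alternatives were DESeq2 1.42.0, limma 3.58.1 (voom), other scalings and filters, a replicate block and fits without single libraries, and added after seeing the data, a fit without both TGFβ1 replicate 3 libraries. The fits were tested on simulated data. Members named are those called, the highest 2 and the lowest of each complex in level, those with the smallest p of their complex in a comparison, isoform families, members often fractional and members that failed the filter; Atp5f1e and the role groups of complexes I, III and V were added after their values were seen. The result for 1 tested member is not reported here. Members and lists were chosen with earlier results of these data known.

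Same-numbered libraries share a number in the labels. Their deviations from the group means correlated at 0.258, −0.084 and 0.137 for TGFβ1 in control cells, at 0.201, 0.139 and 0.202 for TGFβ1 in KO cells, at 0.149, 0.069 and 0.125 between untreated genotypes and at 0.396, 0.416 and 0.726 between treated ones. Only in the second and the fourth comparison was every pair above 0.1, so there the numbers were read as pairs. The main fit used no block in any comparison. Pairing enters only through the values given for the replicate block.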

Additional observations from a re-analysis of the deposited data

How the results depend on the processing

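Members called for TGFβ1 in control cells numbered 7, and 11 by DESeq2, 1 with only the 6 libraries of the comparison, 13 with the replicate block, 14 without both TGFβ1 replicate 3 libraries (chosen after seeing the data), 3 of 18 among members with whole counts alone, and 0 to 11 with 1 library left out. In KO cells the 3 calls became 5 without a filter on low counts, 8 by DESeq2, 1 by limma-voom, 15 with the replicate block, 16 without both replicate 3 libraries, 0 among members with whole counts and 0 to 16 with 1 library left out. All 7 and all 3 calls were kept under the block and without both replicate 3 libraries. Over all genes DESeq2 called 1404 (10%) and 1731 (12.4%) and the block 2397 and 2780, instead of 1234 and 1593, and the fit without both replicate 3 libraries 3414 and 3984. In the comparisons whose numbers do not pair the libraries, the block changed no count of the members other than that in control cells. The median fold change kept its direction under every setting run in both TGFβ1 comparisons, from log2 −0.24 (without untreated control replicate 1) to −0.11 in control cells and −0.18 to −0.08 in KO cells with 1 library left out. The medians between genotypes lay from −0.12 to −0.01 without and −0.05 to 0.04 with TGFβ1, and the median difference of the TGFβ1 change from −0.02 to 0.11. Counts of calls between genotypes and for the interaction were 0 under every setting. Values of single members under an alternative were tallied for 44 tested members named by the rules above, and not for the others. Of these 4796 values, 4676 stayed on their side of the threshold. Among those 4676, 212 were not called in either fit and had the other sign. Another 61 passed the threshold newly, 59 no longer passed and no called value changed sign. The causes of these shifts were not tested. With 3 libraries per group, the members' typical change of about log2 −0.15 stood against a pooled SD of the members' median of 0.0786 between libraries.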
